A study of Mus musculus with 16 samples.

Results

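The 6 samples described here are brown adipocytes treated with triacsin C or with etomoxir and without SR-3420, 3 samples with each inhibitor. They are 6 of the 16 samples of the series, and they were chosen by their treatment labels alone, without use of any measured value. The study asked whether genes that respond to lipolysis need fatty acids to be activated or oxidized, and RNA was sequenced from cells of BAT-LgT, a mouse brown preadipocyte line immortalized with SV40 large T antigen. Treatment was on day 7, after differentiation in culture. Pre-treatment lasted 1 h, with triacsin C at 5 µM in the first group and etomoxir at 50 µM in the second, and another 3 h without SR-3420 followed before harvest. Used for reference were 2 vehicle samples, which received DMSO on the same schedule, and 3 samples with each inhibitor in which SR-3420 was present during the last 3 h. SR-3420, a compound that binds ABHD5 and switches on lipolysis, was given at 10 µM by the labels, while the study's text states a higher dose. All samples come from cultures of a single immortal line, so they describe that line only.

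Triacsin C inhibits long-chain acyl-CoA synthetases, the enzymes that attach coenzyme A to fatty acids and so make them usable for triglyceride, phospholipid and energy metabolism. Etomoxir inhibits carnitine palmitoyltransferase 1 (CPT1), which acts after that step and lets activated fatty acids enter mitochondria for oxidation. Brown adipocytes store fatty acids in lipid droplets and, when stimulated, burn them to make heat; the cells compared here were not stimulated. The comparison of the inhibitors asks how gene expression differs between cells in which activation of fatty acids is blocked and cells in which only their import into mitochondria is blocked.

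The deposited counts summed to 9452861, 15818919 and 13164376 for triacsin C replicates 1, 2 and 3 and to 14993463, 11813662 and 10993504 for etomoxir replicates 1, 2 and 3. The vehicle samples held 14032494 and 10097582 counts. Counts of 2 replicates of a group differed by 4.53 to 27.5 times what counting error alone gives for triacsin C and by 19.8 to 117 times for etomoxir (chi-square statistic per degree of freedom), and no pair held identical values. Below, a normalized count is a count divided by the size factor that DESeq2 estimates for its library, and values listed for several samples follow the order of the replicate numbers, which are 2 and 3 for vehicle.

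The cells carried the markers of adipocytes at high levels. All 8 adipocyte markers were measured well enough to be tested, and their normalized counts summed to 453314, 569841 and 456342 with triacsin C and to 491909, 391686 and 394923 with etomoxir. The most abundant of them per kb of counted length were Cfd at 200147 and Fabp4 at 170801 normalized counts per kb. Of 8 markers of brown adipocytes 7 could be tested, with sums of 3232, 4164 and 3721 with triacsin C and 3286, 3599 and 3393 with etomoxir, most of it from Cox8b. Ucp1, the uncoupling protein that defines brown fat, stood near the floor, at 13.2, 35.5 and 27.1 normalized counts with triacsin C and 29.9, 9.80 and 14.1 with etomoxir, and Dio2 had raw counts of 0, 1 and 1 with triacsin C and 0 in each etomoxir sample.

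Markers of other cell types were low, apart from those of preadipocytes. The 10 preadipocyte and fibroblast markers, led by Col1a1, summed to 35898, 31623 and 27476 with triacsin C and to 31460, 22847 and 15724 with etomoxir, and edgeR's test, described below, called 0 of the 9 tested, of which 3 had an unadjusted p under 0.05. Macrophage markers summed to 318, 372 and 342 with triacsin C and 195, 198 and 162 with etomoxir, with Cd68 as the most abundant; 5 of the 8, among them Ptprc and Itgam, were too low to be tested. Endothelial markers summed to 32.3, 85.0 and 45.8 against 53.5, 50.1 and 29.4, with 2 of 7 tested, and muscle markers to 180.4, 207 and 285 against 224, 192 and 105, with 3 of 7 tested and Myf5 at 0 in all 6 samples. Triacsin C replicate 3 stood apart in the muscle markers, with raw counts of 44 for Myog and 26 for Myh3 against 0 to 7 and 0 to 4 in the other 5 samples. Their part in the results below was not tested, and in samples of whole cultures fewer cells of a type and less RNA per cell cannot be told apart.

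Cells with triacsin C differed from cells with etomoxir in a large part of their transcriptome. With triacsin C, 14 of 30 antioxidant genes, 14 of 26 early response factors, 10 of 24 heat shock genes, 11 of 26 genes of cholesterol synthesis and the metallothioneins Mt1 and Mt2 were higher, where 8.08% of all genes tested were. With a trend over gene span removed these counts became 9, 9, 5 and 6, where 1 of the 6 was newly called. The share of all genes tested fell to 4.39%. The insulin receptor gene, the adipocyte regulators Pparg and Prdm16, the acyl-CoA synthetase gene Acsl1 and many genes that span a long stretch of DNA were lower. Metallothionein 2 was 11.6 times as high with triacsin C as with etomoxir, and the kinase gene Prkce had a log2 fold change of -2.58.

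Differences were tested with edgeR's quasi-likelihood test on the 12786 of 20295 genes with enough counts, and a gene is called when its p-value after Benjamini-Hochberg adjustment is under 0.05. A log2 fold change, written here as triacsin C against etomoxir unless another pair is named, is 1 for each doubling, and SE is its standard error. By this rule 1033 genes were higher with triacsin C (8.08% of the genes tested) and 1125 were lower (8.8%), 2158 in all (16.9%). A log2 fold change of at least 1 in size was found for 367 of the higher genes (2.87% of the genes tested) and 433 of the lower ones (3.39%). The median log2 fold change of all genes tested was 0.07. The triacsin C and etomoxir samples did not overlap in 4677 of the 12786 genes tested, in 1027 of the 1033 higher genes and in 1124 of the 1125 lower ones, so that absence of overlap, given below for single genes, is common among called genes. Without triacsin C replicate 2 the number of called genes was 1247, and without triacsin C replicate 3 it was 1405. The balance of directions depends on the processing: without a filter on low counts 564 were higher and 1193 lower, in a fit of these groups alone 502 and 1003, and with a trend over gene span removed 561 and 461. Counts for gene lists below stand against the shares of all genes in the same fit. For edgeR's test as first given these were 8.08% higher and 8.8% lower. With the span trend removed 4.39% of all genes were higher, and 461 of 12786 were lower. List counts with that trend removed can include genes called only there. Examples are Nsdhl of the cholesterol list, G0s2 and Pck1 of the PPAR targets, P4ha1 of the HIF targets and Pfkp of glycolysis. Without triacsin C replicate 2, 542 genes were higher and 705 lower of 12667 tested. Without triacsin C replicate 1 it was 668 and 805 of 12772, and without triacsin C replicate 3 644 and 761 of 12773. Without etomoxir replicate 1 it was 1039 and 1100 of 12711. Leaving out etomoxir replicate 2 gave 645 and 855 of 12793, and leaving out etomoxir replicate 3 gave 590 and 860 of 12785. DESeq2's Wald test called 1287 higher and 1476 lower genes of 12786.

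Set against vehicle, the inhibitors differed in how many genes they moved. Triacsin C against vehicle gave 610 higher (4.77%) and 887 lower genes (6.94%), and etomoxir against vehicle gave 2 higher (0.0156%) and 1 lower (0.00782%), with 283 genes at an unadjusted p under 0.05 and 17 genes called by DESeq2's Wald test. Genes called higher between the inhibitors had a median log2 fold change of 0.75, and the same genes had a median of 0.65 for triacsin C against vehicle and -0.06 for etomoxir against vehicle. Genes called lower had medians of -0.87, -0.84 and 0.02 in the same order. These comparisons share samples, so their values are set side by side and not counted as separate evidence. There were only 2 vehicle samples: without vehicle replicate 3 triacsin C against vehicle gave 702 genes and etomoxir against vehicle gave 0 (346 at an unadjusted p under 0.05), and without vehicle replicate 2 triacsin C against vehicle gave 840.

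**Figure D1:**
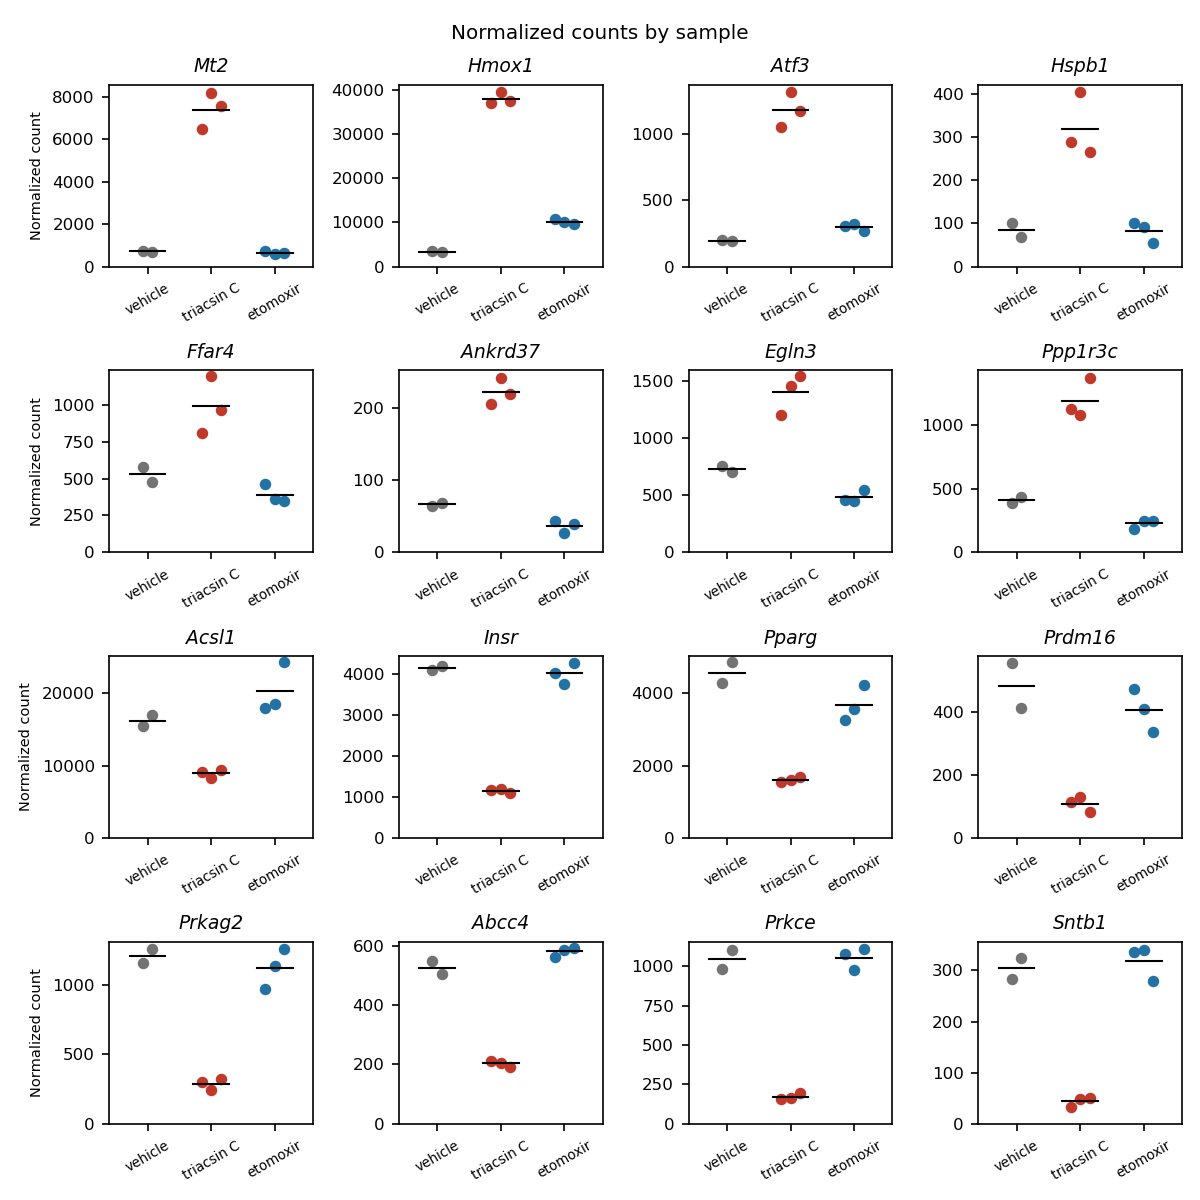
Normalized counts (vertical axes, linear and starting at 0) of 16 genes in each vehicle, triacsin C and etomoxir sample; points are samples and lines are group means. In every panel the 3 triacsin C samples lie apart from the 3 etomoxir samples; for Mt2 they lie between 6456 and 8194 with triacsin C and between 567 and 742 with etomoxir.

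The genes of the inhibited enzymes themselves showed a single clear difference. Acsl1, the main long-chain acyl-CoA synthetase of adipocytes, had normalized counts of 15463 and 16974 with vehicle, 9164, 8287 and 9387 with triacsin C and 17966, 18469.5 and 24370.5 with etomoxir. Each triacsin C sample was thus below each sample of the other groups. Acsl1 fell with triacsin C against etomoxir, with a log2 fold change of -1.15 (SE 0.21, adjusted p = 0.00208, edgeR's quasi-likelihood test) and against vehicle, with -0.84 (adjusted p = 0.0294, same test). The gene spans 65.0 kb at chr8:47556396-47621404 of mm9.

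No other long-chain synthetase gene was called in the model of group means. Acsl3 had normalized counts of 902, 583 and 911 with triacsin C and 332, 476 and 702 with etomoxir, and Acsl4 had 1024, 696 and 958 and 678, 1026 and 2295. The groups overlapped in both genes, and Acsl3 overlaps another gene, so its reads may be shared. Acsl5 was level, at 766, 719 and 883 against 675, 816 and 894, and Acsl6 was not tested, with raw counts of 0, 4 and 6 against 4, 3 and 1. Of the 14 acyl-CoA synthetase genes tested 0 were higher and 1, Acsl1, was lower, with a median of 0.05; 2 were lower by DESeq2's Wald test.

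Among the genes named here for the etomoxir target CPT1 and its partners, only the low muscle form Cpt1b was called. Cpt1a, the main form in these cells, had normalized counts of 912 and 847 with vehicle, 1393, 1146 and 1131 with triacsin C and 1671, 1246 and 1219 with etomoxir. Triacsin C and etomoxir samples of Cpt1a overlapped (log2 fold change -0.15, SE 0.19, adjusted p = 0.619, edgeR's quasi-likelihood test), and the vehicle samples lay below all 6. Cpt2, the inner membrane enzyme, and Slc25a20, the carnitine carrier, had log2 fold changes of 0.26 and 0.14 and were not called. The muscle form Cpt1b was low, at 54.3, 70.1 and 50.0 with triacsin C against 39.9, 39.2 and 30.6 with etomoxir; it was called (log2 fold change 0.69, SE 0.20, adjusted p = 0.0303, same test), but not without triacsin C replicate 2 (0.53, adjusted p = 0.149) or when a trend over gene span was removed (0.38, adjusted p = 0.246). Leaving out triacsin C replicate 1, etomoxir replicate 2 or etomoxir replicate 3 also ended this call, with log2 fold changes of 0.74, 0.75 and 0.57, as did the absence of a filter on low counts (0.59) and a fit of these groups alone (0.61). Cpt1c, at 255, 258 and 237 against 285, 169.8 and 119.9, had groups that overlapped.

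Few genes that burn fatty acids in mitochondria and peroxisomes were called between the inhibitors. Of 18 tested genes of mitochondrial beta-oxidation 2, Eci1 and Acadvl, were higher with triacsin C and 0 lower (median 0.20), and 16 were above 0. The list's normalized counts summed to 67814, 75495 and 74571 with triacsin C and to 59784, 61484 and 63108 with etomoxir, without overlap. The calls of Eci1 and Acadvl were kept in only 2 and 1 of the 6 fits that left out a library. In these fits the log2 fold change was 0.50 to 0.73 for Eci1, against 0.63, and 0.33 to 0.43 for Acadvl, against 0.39. Neither call was kept with the trend over gene span removed. Of 20 peroxisomal genes 0 were called in either direction by edgeR (median 0.005), with 2 at an unadjusted p under 0.05, 1 called by DESeq2's Wald test and 1 called lower with the span trend removed. PPAR target genes, which fatty acids are known to induce through nuclear receptors, included 7 higher and 2 lower of 41 (median 0.22), 3 and 2 without triacsin C replicate 2, and 2 and 3 with the span trend removed (median 0.10). Pdk4, the kinase that holds back pyruvate oxidation, had normalized counts of 3226, 2996 and 3109.9 with triacsin C, 1750.2, 2138 and 2482 with etomoxir and 1404 and 1416 with vehicle. Its 3 groups did not overlap, with triacsin C highest and vehicle lowest. The log2 fold change between the inhibitors was 0.58 (SE 0.16, adjusted p = 0.0282, edgeR's quasi-likelihood test), and the call was lost in 5 of the 6 fits that left out a library. Its adjusted p was 0.0828, 0.0628 and 0.0711 without triacsin C replicates 1, 2 and 3 and 0.0840 and 0.0721 without etomoxir replicates 1 and 2. The log2 fold changes in these fits were 0.55, 0.61, 0.58, 0.46 and 0.59. The call was also lost without a filter on low counts (0.47, adjusted p = 0.123, same test). It was lost in a fit of these groups alone (0.49, adjusted p = 0.0881) and with the span trend removed (0.32, adjusted p = 0.307).

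Lipid droplet genes differed in single members, while more genes of fatty acid uptake, binding and sensing were called. Of 15 tested genes of that list 6 were higher and 1 lower (median 0.25). With the span trend removed it was 3 and 1 (median 0.11), and without etomoxir replicate 2 also 3 and 1. Plin2, which coats lipid droplets, had 9078, 11324 and 9123 normalized counts with triacsin C and 7927, 6684 and 5161 with etomoxir, without overlap. It was not called (log2 fold change 0.60, SE 0.20, adjusted p = 0.0615, edgeR's quasi-likelihood test). It passed when etomoxir replicate 1 was left out (0.76, adjusted p = 0.0349) and by DESeq2's Wald test (adjusted p = 0.0359). With the replicate number as a block in edgeR it passed as well (0.62, adjusted p = 0.00133). Hilpda, an inhibitor of the lipase ATGL, had 312, 406 and 375 with triacsin C and 162, 179.6 and 172 with etomoxir. All triacsin C values of Hilpda were above all others, and the gene rose with a log2 fold change of 1.12 (SE 0.16, adjusted p = 3.82e-04, same test). It was the only 1 of 15 lipid droplet genes called, with 0 lower (median 0.13; 1 higher and 1 lower with the span trend removed, median -0.08). Without etomoxir replicate 1, and by DESeq2's Wald test, 2 were higher.

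The fatty acid receptor genes went in opposite directions. Ffar4, which codes for the receptor GPR120 for long-chain fatty acids, had normalized counts of 582 and 477 with vehicle, 811, 1193 and 965 with triacsin C and 460.4, 360.3 and 350.2 with etomoxir. Vehicle lay between the inhibitors, with no overlap among the 3 groups. The log2 fold change of Ffar4 was 1.36 (SE 0.30, adjusted p = 0.00772, edgeR's quasi-likelihood test). Ffar2, the receptor for short-chain fatty acids, had 232, 263 and 254 with triacsin C and 685, 576 and 515 with etomoxir and fell (log2 fold change -1.22, SE 0.21, adjusted p = 0.00137, same test), again with no overlap. Cyp26b1, which degrades retinoic acid, had 93.9, 81.3 and 89.5 and 135, 129.5 and 116 normalized counts. Its groups did not overlap, but it was not called (log2 fold change -0.51, SE 0.19, adjusted p = 0.0810, same test). With the replicate number as a block it was called (-0.49, adjusted p = 0.0141, same test).

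Thioesterases, which take coenzyme A off fatty acids again, were higher in 4 of 10 tested genes and lower in 0 by edgeR (median 0.57). Without triacsin C replicate 2 or etomoxir replicate 3 it was 2, and 2 as well with the span trend removed (median 0.28). Acot13 kept its call in 1 of the 6 leave-outs, at log2 fold changes of 0.32 to 0.41 against 0.36. Acot2 lost its call without triacsin C replicate 2 (0.53), without etomoxir replicate 3 (0.55) and with the span trend removed (0.26, adjusted p = 0.205). Acot4 had normalized counts of 104, 100 and 113 with triacsin C and 55.3, 42.5 and 35.3 with etomoxir, and Acot1 had 68.9, 101 and 86.4 and 37.2, 38.1 and 20.0. Neither gene had overlapping groups, and their log2 fold changes were 1.27 (SE 0.23, adjusted p = 0.00179) and 1.44 (SE 0.30, adjusted p = 0.00532; edgeR's quasi-likelihood test). Acot1 and Acot2 are near-identical copies side by side in the genome, and how reads were shared between them is not known.

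Among genes of triglyceride synthesis 0 of 19 were higher and 3 lower (median -0.11), with 1 lower without triacsin C replicate 1 or 2, 2 lower with the span trend removed and 5 lower by DESeq2's Wald test. Agpat9, an acyltransferase of the first step of glycerolipid synthesis, had 2663 and 3018 normalized counts with vehicle, 2169, 2009 and 2209.6 with triacsin C and 3712, 4215 and 5862 with etomoxir. Triacsin C samples of Agpat9 were lowest and etomoxir samples highest, and the log2 fold change was -1.08 (SE 0.22, adjusted p = 0.00479, edgeR's quasi-likelihood test). Mgll, which splits monoglycerides, fell (log2 fold change -1.10, SE 0.17, adjusted p = 5.87e-04, same test) from 7069, 6534 and 6308 with etomoxir to 2707, 3399.6 and 3028 with triacsin C, and its call was lost when the span trend was removed (-0.60, adjusted p = 0.0896). Of 17 lipases and their regulators 2 were higher and 2 lower (median -0.21). It was 1 and 1 with the span trend removed and without any library but etomoxir replicate 3, as Lipg and Dagla kept their calls only when that sample was left out. Over the 6 leave-outs their log2 fold changes were 0.65 to 1.03 and -1.14 to -0.72.

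Genes of cholesterol synthesis included many that were higher with triacsin C than with etomoxir. Of 26 genes of cholesterol synthesis and SREBP2 targets 11 were higher and 0 lower by edgeR, and the list's median was 0.62, against 0.07 for all genes (6 higher and 0 lower with the span trend removed, median 0.43). Without triacsin C replicate 1 or 2 it was 7 or 6 genes. Against vehicle the medians were 0.30 for triacsin C, with 1 gene higher and 1 lower, and -0.38 for etomoxir, with 0 called. Pmvk, phosphomevalonate kinase, had normalized counts of 2148 and 1770.3 with vehicle, 2349, 2853 and 2450.0 with triacsin C and 1588, 1619.7 and 1289 with etomoxir. The 3 groups of Pmvk did not overlap (log2 fold change 0.79, SE 0.13, adjusted p = 0.00114, edgeR's quasi-likelihood test).

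Genes of fatty acid synthesis and desaturation followed with 9 higher and 1 lower of 23 (median 0.42; 4 and 0 with the span trend removed, median 0.21; 4 and 1 without triacsin C replicate 2 or etomoxir replicate 3), and a median of -0.28 for etomoxir against vehicle, where 0 were called. Scd2, a desaturase, had 49053 and 59902 normalized counts with vehicle, 63995, 57004 and 67357 with triacsin C and 25772, 32491 and 40058 with etomoxir. Etomoxir samples of Scd2 were the lowest, and triacsin C and vehicle overlapped. Its log2 fold change was 0.97 (SE 0.21, adjusted p = 0.00650, edgeR's quasi-likelihood test). With the span trend removed it was 0.72 (adjusted p = 0.065, same test). The lower gene was Acaca, acetyl-CoA carboxylase, at 1304, 1544 and 1609 with triacsin C, 2506, 2733 and 2519.8 with etomoxir and 3926 and 3541 with vehicle. It spans 206 kb, fell (log2 fold change -0.78, SE 0.12, adjusted p = 7.69e-04, same test) and was at -0.12 (adjusted p = 0.714) with the span trend removed. Abca1, a cholesterol exporter and target of the sterol receptor LXR, had 1541, 1137 and 1309 with triacsin C, 2662, 2564 and 2944 with etomoxir and 3868 and 4137 with vehicle, 3 groups without overlap. Its log2 fold change was -1.01 (SE 0.15, adjusted p = 3.94e-04, same test), and of 13 LXR targets 3 were higher and 1 lower (median 0.29; 2 and 1 with the span trend removed, median 0.11).

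Several genes of the response to oxidants and reactive compounds rose with triacsin C. Of 30 tested targets of NRF2, the factor that switches on antioxidant genes, 14 were higher and 1 lower, with a median of 0.56 (9 and 1 with the span trend removed, median 0.35). Hmox1, heme oxygenase 1, had normalized counts of 3429 and 3185 with vehicle, 37201, 39476 and 37633 with triacsin C and 10780.1, 10054 and 9687 with etomoxir. The replicates were tight and the groups far apart, with etomoxir between vehicle and triacsin C. Hmox1 rose by 1.93 for triacsin C against etomoxir (SE 0.14, adjusted p = 2.61e-06), by 3.55 for triacsin C against vehicle (adjusted p = 2.43e-07) and by 1.62 for etomoxir against vehicle (adjusted p = 0.00179), all log2 fold changes from edgeR's quasi-likelihood test. It lies at chr8:77617517-77624492 of mm9 on the plus strand.

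Further NRF2 targets behaved alike. Cbr3, a carbonyl reductase, had 3913, 4965 and 3403 normalized counts with triacsin C and 1902, 1372 and 1033 with etomoxir, and Osgin1, an oxidative stress gene, had 2707, 3539 and 2740.4 and 1377, 1074 and 807. Triacsin C samples were above etomoxir samples in each case, at log2 fold changes of 1.53 (SE 0.34, adjusted p = 0.00747) and 1.48 (SE 0.29, adjusted p = 0.00362) by edgeR. Srxn1, which repairs oxidized peroxiredoxins, was chosen after its values were seen, for its promoter; it had 9431, 10313 and 9161 and 4033, 4079 and 3364 and a log2 fold change of 1.36 (SE 0.21, adjusted p = 6.75e-04, same test). The lower gene of the list was Abcc4, an exporter that spans 224 kb, at 211, 206 and 193 with triacsin C and 564, 587 and 594 with etomoxir, without overlap and with a log2 fold change of -1.49 (SE 0.12, adjusted p = 3.69e-06, same test).

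Metallothioneins, small proteins that bind zinc and copper, showed some of the widest gaps between the groups. Mt2 had normalized counts of 753 and 681 with vehicle, 6456, 8194 and 7539.5 with triacsin C and 742, 567 and 632 with etomoxir. Its vehicle and etomoxir samples overlapped, while every triacsin C sample was more than 8 times as high as any of them. The log2 fold change was 3.54 (SE 0.15, adjusted p = 4.53e-08, edgeR's quasi-likelihood test). Mt1, which lies 5521 bases after the end of Mt2, had 15868, 23738 and 17766 with triacsin C and 5484, 3429.8 and 2964 with etomoxir, at a log2 fold change of 2.29 (SE 0.30, adjusted p = 2.00e-04, same test) and again without overlap.

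Heat shock genes of the cytosol were higher in 10 and lower in 0 of 24 tested genes by edgeR, with a median of 0.47. Removing the span trend left 5 higher and 0 lower and a median of 0.12, and without triacsin C replicate 2 it was 6. Hspb1, a small chaperone, had normalized counts of 100 and 69.4 with vehicle, 289, 405 and 266 with triacsin C and 101, 91.4 and 54.1 with etomoxir. Only triacsin C stood apart, and Hspb1 rose by 1.98 (SE 0.31, adjusted p = 6.46e-04, edgeR's quasi-likelihood test). Hspb8, another small chaperone, went from 2483, 2692 and 2737 with etomoxir to 4634, 4281 and 4929 with triacsin C (log2 fold change 0.83, SE 0.11, adjusted p = 1.87e-04, same test). Hspa1a had 111, 208 and 98.9 against 53.5, 27.2 and 25.9 and was called (log2 fold change 1.98, SE 0.46, adjusted p = 0.00988, same test), though not without triacsin C replicate 2 (1.56, adjusted p = 0.0581). Hspa1a and Hspa1b have near-identical sequences, and reads cannot be assigned between them with certainty.

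Promoters of a few of these genes, picked because a match was found in them, are shown for the short motifs through which heat shock, AP-1 and NRF2 factors are known to bind. The sequences are the 250 bases before the gene start from RefSeq on build GRCm38.p6, a later build than the mm9 of the counts, written 5′ to 3′ along the gene. Capitals mark matches of GAANNTTC, the heat shock element, in Hspb1, and of TGAGTCA (AP-1) or TGACNNNGC (the core of the antioxidant element) in Srxn1 and Mt2, each searched on both strands. The Hspb1 promoter lies at chr5:135887669-135887918, that of Srxn1 at chr2:152105274-152105523 and that of Mt2 at chr8:94172368-94172617, all on the plus strand.
Hspb1: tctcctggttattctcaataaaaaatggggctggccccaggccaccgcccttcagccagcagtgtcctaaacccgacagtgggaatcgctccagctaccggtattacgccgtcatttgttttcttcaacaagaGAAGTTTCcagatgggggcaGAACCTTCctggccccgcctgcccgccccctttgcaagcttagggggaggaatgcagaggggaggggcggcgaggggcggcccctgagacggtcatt
Srxn1: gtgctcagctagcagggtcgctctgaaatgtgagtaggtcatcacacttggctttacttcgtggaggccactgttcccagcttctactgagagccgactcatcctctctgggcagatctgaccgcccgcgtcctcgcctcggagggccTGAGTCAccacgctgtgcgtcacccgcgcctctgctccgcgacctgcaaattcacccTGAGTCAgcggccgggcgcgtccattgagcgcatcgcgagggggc
Mt2: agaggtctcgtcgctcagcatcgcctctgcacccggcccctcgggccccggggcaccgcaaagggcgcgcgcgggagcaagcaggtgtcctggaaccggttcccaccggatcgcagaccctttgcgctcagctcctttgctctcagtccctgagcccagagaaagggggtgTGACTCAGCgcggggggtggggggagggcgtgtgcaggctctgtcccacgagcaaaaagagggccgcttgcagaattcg
Hspb1 held 2 matches of GAANNTTC, which begin 117 and 97 bases before the start. Srxn1 held 2 matches of TGAGTCA, 102 and 45 bases before the start, and in Mt2 the motifs TGAGTCA and TGACNNNGC overlapped at 79 bases before the start.

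Over all 27025 RefSeq promoters of this length GAANNTTC was found in 6.78%, TGAGTCA in 4.43% and TGACNNNGC in 10.1%. A promoter could be matched to 10186 of the genes tested, of which 4.94% held GAANNTTC. Among the 282 matched genes at least 2-fold higher with triacsin C, 28 held it (9.93%), and of the 335 at least 2-fold lower 8 did (2.39%). The 2-fold sets depend on the filter on low counts. Matched or not, they held 367 higher and 433 lower genes, but 189 and 384 with 10 counts in every sample. Motif shares were not taken under that filter. Among all called genes it was held by 5.94% of the higher and 3.44% of the lower ones. These promoters also differ in base content, with a median GC of 56.0% at 2-fold higher, 65.6% at 2-fold lower and 60% over all matched genes, and the shares were not adjusted for it. TGAGTCA was held by 2.13% of the genes at least 2-fold higher and 2.39% of those at least 2-fold lower, but by 3.84% of all higher and 1.78% of all lower genes, against 3.03% of all tested. TGACNNNGC was held by 12.1% and 10.1% at 2-fold and by 13.1% and 12.3% of all called genes, against 12.02%. Of 19 heat shock genes with a matched promoter 6 held GAANNTTC, 3 of them among the 8 higher ones. Of 25 NRF2 targets 7 held TGACNNNGC and 3 held TGAGTCA, of which 1 and 2 were among the 12 higher ones. Such a match describes letters in the sequence and does not show that a factor binds there.

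Early response genes included many that were raised with triacsin C. Of 26 immediate early and AP-1 factors 14 were higher and 0 lower by edgeR, the median was 0.66, and 9 were higher against vehicle. With the span trend removed 9 were higher and 1 lower between the inhibitors, and the median was 0.31; without triacsin C replicate 2, 9 were higher. Atf3, a stress-induced transcription factor, had normalized counts of 201 and 190.1 with vehicle, 1052, 1315 and 1169.8 with triacsin C and 303, 317 and 264 with etomoxir. Triacsin C samples of Atf3 were several times above the rest, and etomoxir samples lay above vehicle. The log2 fold change was 2.02 (SE 0.14, adjusted p = 2.10e-06, edgeR's quasi-likelihood test) between the inhibitors and 0.59 for etomoxir against vehicle (adjusted p = 0.944, same test), the latter not called. Maff, a partner of NRF2 and AP-1 factors, had 1893, 2769 and 1918 against 1181, 951 and 783, and Fosl1, a member of AP-1, had 1219, 1504 and 1193 against 655, 663 and 434. Both had triacsin C samples above etomoxir samples, although Fosl1 overlaps another gene and may share its reads, at log2 fold changes of 1.20 (SE 0.22, adjusted p = 0.00201) and 1.18 (SE 0.23, adjusted p = 0.00316) by edgeR.

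The number of called genes in the ATF4 branch of the stress response depends on the test. Of 43 tested genes 5 were higher and 0 lower by edgeR between the inhibitors (median 0.21; 2 and 1 with the span trend removed, median 0.13), 9 were higher and 1 lower by DESeq2's Wald test and 18 had an unadjusted p under 0.05, while triacsin C against vehicle gave 12 higher and 0 lower (median 0.46) and etomoxir against vehicle 1 higher and 0 lower (median 0.19). Ddit4, an inhibitor of the growth kinase mTORC1, had normalized counts of 1566 and 965 with vehicle, 2729, 3475 and 2633 with triacsin C and 1119, 900.2 and 528 with etomoxir. Its triacsin C samples were highest, while vehicle and etomoxir overlapped (log2 fold change 1.81, SE 0.31, adjusted p = 0.00140, edgeR's quasi-likelihood test). Chaperones and degradation genes of the endoplasmic reticulum had 2 higher and 4 lower of 34, near the shares of all genes (8.08% and 8.8%; median 0.06), 1 and 2 without triacsin C replicate 1 or 2 or etomoxir replicate 3, and 0 and 2 with the span trend removed (median -0.16).

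Etomoxir against vehicle called 3 genes, which are named here after their values were seen. Besides Hmox1 they were Fgf21, a hormone that fat cells release under stress, and Bmf, a gene that promotes cell death. Fgf21 had normalized counts of 12.1 and 7.71 with vehicle, 44.4, 47.9 and 44.7 with etomoxir and 35.2, 38.3 and 44.8 with triacsin C, and Bmf had 318 and 277, 64.4, 66.4 and 70.5 and 61.6, 71.0 and 67.7 in the same order. In both genes the inhibitors overlapped and vehicle stood apart. Fgf21 rose with etomoxir by 2.16 (SE 0.23, adjusted p = 0.00210) and Bmf fell (-2.15, SE 0.26, adjusted p = 0.00521), by edgeR's quasi-likelihood test, and triacsin C against vehicle gave 1.98 and -2.13. Between the inhibitors the log2 fold changes were -0.18 and 0.02, and neither was called. Without vehicle replicate 3 etomoxir against vehicle gave 0 genes, 2 without vehicle replicate 2, etomoxir replicate 1 or etomoxir replicate 2, and 0 when only these groups were fitted.

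Some genes of glycolysis and of the response to low oxygen were also higher with triacsin C. Of 27 genes of glucose uptake and glycolysis 7 were higher and 2 lower (median 0.50), and of 21 target genes of the hypoxia factor HIF 7 were higher and 1 lower (median 0.48). With the span trend removed it was 3 higher and 1 lower (median 0.37) and 5 higher and 0 lower (median 0.31), and the first list had 4 higher and 1 lower without triacsin C replicate 2. In each of the 6 leave-outs the lower genes were 1 for glycolysis and 0 for HIF targets. Slc16a3, which exports lactate, had normalized counts of 251 and 162 with vehicle, 280.1, 425 and 356 with triacsin C and 142, 149 and 88.1 with etomoxir. The groups of Slc16a3 did not overlap, and the log2 fold change was 1.503 (SE 0.24, adjusted p = 8.51e-04, edgeR's quasi-likelihood test). Egln3, an oxygen sensor, had 756 and 704 with vehicle, 1204, 1454 and 1537 with triacsin C and 460.4, 451 and 543 with etomoxir, and Ndrg1 had 352 and 374, 384, 398 and 417 and 225, 209 and 186. Vehicle lay between the inhibitors for both genes. They had log2 fold changes of 1.56 (SE 0.26, adjusted p = 0.00104) and 0.98 (SE 0.14, adjusted p = 4.23e-04) by the same test.

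Ankrd37, a HIF target, had 205, 242 and 219.6 normalized counts with triacsin C, 43.5, 27.2 and 38.8 with etomoxir and 64.6 and 68.1 with vehicle. No groups of Ankrd37 overlapped; its log2 fold change was 2.62 (SE 0.18, adjusted p = 1.58e-06, edgeR's quasi-likelihood test), and since the gene overlaps another in the genome its reads may be shared. Pdp2, a phosphatase that switches pyruvate dehydrogenase on, had 1462, 1432 and 1429 with triacsin C and 668, 641 and 578 with etomoxir. It was higher in each triacsin C sample, at 1.22 (SE 0.13, adjusted p = 4.92e-05, same test), and 4 of 11 genes of pyruvate dehydrogenase control were higher and 0 lower by edgeR (median 0.32). Only the call of Pdp2 was kept in all 6 fits that left out a library. Pdk4 kept its call in 1 and Mpc1 and Pdha1 in 0, at log2 fold changes of 0.46 to 0.69, 0.34 to 0.47 and 0.30 to 0.34. With the span trend removed Pdp2 was the only gene of the list called.

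Genes of insulin and energy signalling were called in both directions. Of 19 genes of insulin signalling and FOXO targets 2 were higher and 5 lower (median -0.09), and of 18 genes of glucose sensing and energy stress 5 were higher and 5 lower (median 0.07). With the span trend removed it was 2 higher and 3 lower (median 0.01) and 2 higher and 4 lower (median 0.09), and without triacsin C replicate 2, etomoxir replicate 2 or etomoxir replicate 3 the energy list had 3 higher and 5 lower. Insr, the insulin receptor, had normalized counts of 4117 and 4196 with vehicle, 1167, 1191 and 1102 with triacsin C and 4029.6, 3768 and 4289 with etomoxir. The triacsin C samples of Insr were far below all others, which overlapped, and the gene fell (log2 fold change -1.78, SE 0.15, adjusted p = 5.96e-06, edgeR's quasi-likelihood test). Prkag2, a subunit of the energy sensor AMPK, had 298, 242 and 321 with triacsin C and 967, 1136 and 1256 with etomoxir, without overlap, and a log2 fold change of -1.94 (SE 0.19, adjusted p = 1.61e-05, same test). The raised genes included Trib1, a regulator of protein degradation, at 2134, 2540.2 and 2371 against 963, 1048 and 961, and Klf10, a sugar-responsive transcription factor, at 1186, 1516 and 1281 against 513, 548 and 458. Their log2 fold changes were 1.27 (SE 0.12, adjusted p = 1.15e-05) and 1.41 (SE 0.16, adjusted p = 5.20e-05), with no overlap in either gene.

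Some regulators of brown fat identity were lower with triacsin C. Of 22 tested genes of thermogenic identity 2 were higher and 7 lower, with a median of -0.15, and 13 were not called. With the span trend removed 0 were higher and 5 lower (median -0.28): Ppargc1a, Prdm16 and Pparg kept their calls, and Adrb3 and Letmd1 were newly called. Ppargc1b, Ebf2, Ppara and Rxra lost theirs there, Ppara also whenever a library was left out (-0.73 to -0.64) and Ebf2 without triacsin C replicate 2 (-1.12) or etomoxir replicate 3 (-0.93). Prdm16, which directs brown fat development, had normalized counts of 553 and 411 with vehicle, 113, 129 and 82.2 with triacsin C and 473, 409 and 335 with etomoxir, and Pparg, the master regulator of adipocytes, had 4272 and 4856, 1550.1, 1605 and 1673 and 3257, 3563 and 4220.4. In both genes the triacsin C samples were lowest and did not overlap the rest. Prdm16 fell (log2 fold change -1.89, SE 0.27, adjusted p = 3.36e-04), as did Pparg (-1.17, SE 0.17, adjusted p = 5.14e-04), by edgeR's quasi-likelihood test. Ppargc1a, a coactivator of mitochondrial genes, had 304, 329 and 398 with triacsin C and 831, 765 and 1216 with etomoxir and a log2 fold change of -1.42 (SE 0.24, adjusted p = 0.00131, same test). The higher members were Cox7a1 and Cox8b, subunits of the respiratory chain, with log2 fold changes of 1.098 and 0.69. Both calls were lost with the span trend removed (0.62 and 0.22), that of Cox8b also without triacsin C replicate 2 (0.59), triacsin C replicate 3 (0.64) or etomoxir replicate 3 (0.57) and in a fit of these groups alone (0.61). Prdm16 spans 321 kb, Pparg 129 kb and Ppargc1a 99.7 kb.

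Clock genes and genes of histone acetylation had more called lower than called higher. Of 20 clock genes 3 were higher and 5 lower (median -0.28; 2 and 3 with the span trend removed, median -0.25). Rora, a nuclear receptor of the clock, had 46.9, 57.9 and 64.5 normalized counts with triacsin C and 182, 156 and 324 with etomoxir, and Bhlhe40, a clock repressor, had 2537, 2392 and 2881 and 1273, 1278 and 1279.9. Rora was lower in every triacsin C sample and Bhlhe40 higher in every one, with log2 fold changes of -1.92 (SE 0.33, adjusted p = 0.00152) and 1.05 (SE 0.14, adjusted p = 2.66e-04; edgeR's quasi-likelihood test). Of 14 genes of histone and chromatin acetylation, deacetylases included, 0 were called higher and 4 lower by edgeR, although 8 were above 0 and the median was 0.14, and with the span trend removed 1 was lower. Kat2b, an acetyltransferase, had 379.8, 383 and 374 with triacsin C and 692, 807 and 1473 with etomoxir (log2 fold change -1.35, SE 0.27, adjusted p = 0.00413, same test), without overlap.

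Nuclear genes of the respiratory chain and of the ribosome had values above 0 in nearly every member, but most were not called. Of 53 respiratory chain genes 13 were higher and 0 lower, 52 had a log2 fold change above 0, and the median was 0.43; of 53 ribosomal protein genes 11 were higher and 0 lower, 52 were above 0, and the median was 0.53, all by edgeR. Respiratory chain calls numbered 4 and 6 without triacsin C replicates 2 and 3 and 7 and 6 without etomoxir replicates 2 and 3. Ribosomal calls numbered 7, 2 and 5 without triacsin C replicates 1, 2 and 3 and 6 and 4 without etomoxir replicates 2 and 3. Cox6b1, a subunit of cytochrome c oxidase, had 3110.5, 3805 and 3779 normalized counts with triacsin C and 2608, 2354 and 2260.1 with etomoxir (log2 fold change 0.59, SE 0.12, adjusted p = 0.00341, edgeR's quasi-likelihood test), without overlap. These are short genes, with a median span of 7.07 kb in the respiratory list and 3.23 kb in the ribosomal list. With the span trend removed the medians were 0.08 and 0.09, 2 and 0 genes were higher, 0 were lower, and Cox6b1 stood at 0.27 (adjusted p = 0.143). Nop56, which builds ribosomes in the nucleolus and overlaps another gene, had 2465, 2361 and 2369.9 with triacsin C and 1463, 1272 and 1248 with etomoxir and rose by 0.88 (SE 0.11, adjusted p = 1.74e-04, same test), and 8 of 29 ribosome biogenesis genes were higher and 0 lower by edgeR (median 0.33; 1 and 0 with the span trend removed, median 0.14). It was 5, 4 and 4 genes without triacsin C replicates 1, 2 and 3 and 5 without etomoxir replicate 3.

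**Figure D2:**
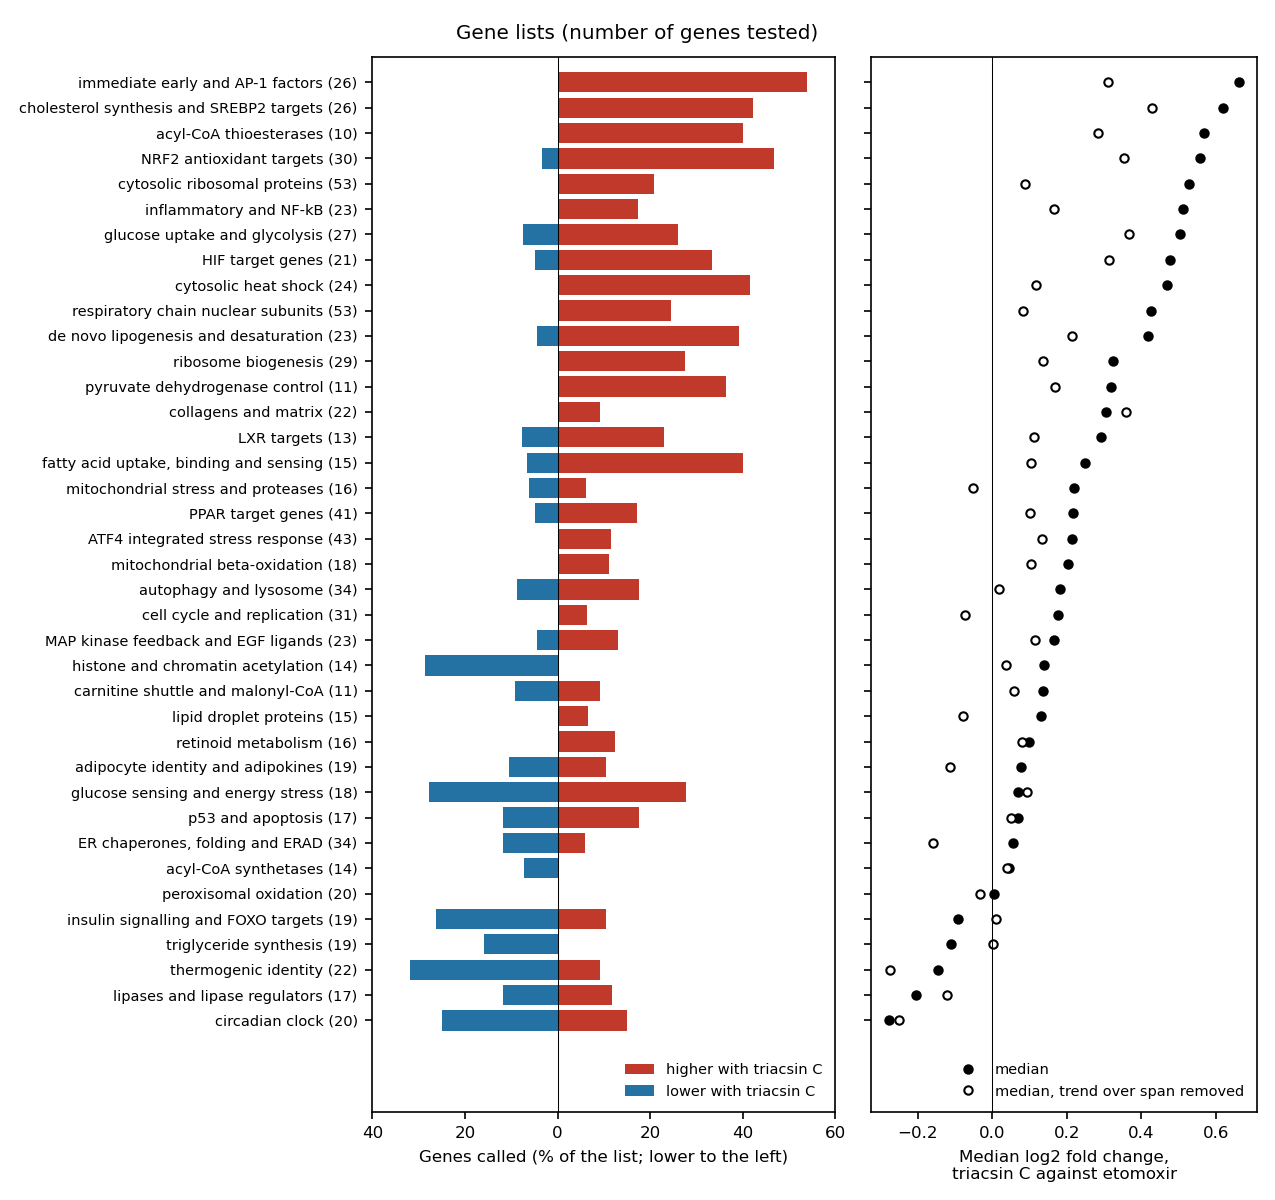
Left, share of each gene list called higher (red) or lower (blue, drawn to the left) with triacsin C against etomoxir, in percent of the genes tested, whose number stands behind the name; right, median log2 fold change of the list (filled) and with the trend over gene span removed (open). The median of all genes is 0.07; the median of the ribosomal protein list moves from 0.53 to 0.09 and that of cholesterol synthesis from 0.62 to 0.43.

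The genes that fell the most had a feature in common: they are long. The 12 lower genes chosen by size of change span 65.7 to 698 kb. Prkce, a protein kinase C, had normalized counts of 985 and 1101 with vehicle, 159.9, 161 and 197 with triacsin C and 1077, 973 and 1107 with etomoxir, and spans 490.1 kb at chr17:86567125-87057259 of mm9. Its triacsin C samples were far below the rest, which overlapped, and the log2 fold change was -2.58 (SE 0.14, adjusted p = 2.52e-07, edgeR's quasi-likelihood test). Plcb1, a phospholipase C, had 111, 121 and 117 with triacsin C and 546, 688 and 809 with etomoxir over a span of 689 kb, and Sntb1, a syntrophin, had 33.7, 48.6 and 50.0 and 336, 341 and 279.7 over 268 kb. Both were lower in all 3 triacsin C samples, at -2.52 (SE 0.22, adjusted p = 6.94e-06) and -2.82 (SE 0.22, adjusted p = 3.59e-06) by the same test. The others of the 12 were Angpt1, Exoc6, Chd7, Prlr, Tenm4, Plekha7, Slc22a23, Pdzd2 and Sox6, with log2 fold changes between -2.85 and -2.45; the choice of the 12 required groups that did not overlap.

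The link with span, looked at after these genes had been seen, ran through the whole table. Span is the distance from the start to the end of a gene on mm9, introns included. The median span was 21.7 kb for all genes tested, 8.49 kb for genes higher with triacsin C and 115 kb for lower ones. Genes of at least 100 kb made up 11.9% of the genes tested, 1.36% of the higher genes and 59.6% of the lower genes. By span the median log2 fold change was 0.39 for genes under 5 kb, 0.30 from 5 to 10 kb, 0.21 from 10 to 20 kb and 0.02 from 20 to 40 kb. It was -0.26 from 40 to 80 kb, -0.52 from 80 to 160 kb, -0.73 from 160 to 320 kb and -0.53 above 320 kb. Calls moved likewise: 308 higher and 8 lower of 1653 genes under 5 kb, against 6 higher and 267 lower of 517 genes from 160 to 320 kb. Across 12774 genes, which are not independent replicates, Spearman's correlation of span and log2 fold change was -0.58.

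**Figure D3:**
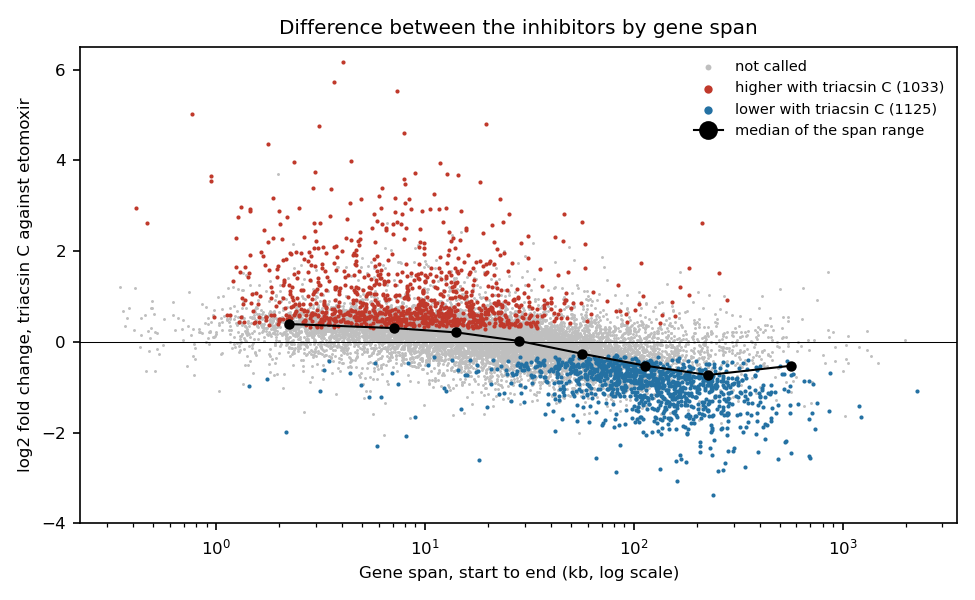
Log2 fold change of triacsin C against etomoxir (vertical axis) by gene span in kb (horizontal axis, log scale); each point is a gene, red if called higher, blue if called lower and grey otherwise, and black points join the medians of the span ranges. The medians go from 0.39 below 5 kb to -0.73 between 160 and 320 kb.

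The length of the counted part of a gene went with the shift as well. The correlation with counted length was -0.39. Among genes with 2 to 4 kb of counted length the median log2 fold change was 0.30 for spans under 10 kb, 0.11 from 10 to 40 kb, -0.29 from 40 to 160 kb and -0.61 above. Among genes spanning over 160 kb it was -0.30 for counted lengths under 2 kb, -0.61 from 2 to 4 kb and -0.74 above. Of 291 genes whose counted length came within 50 bases of their span, and so have little or no intron, 42 were higher and 1 lower, with a median of 0.35. The study states that reads were counted by gene, and the counted length in the table, with a median of 2786 bases for the genes tested, is far below the span. Neither says outright whether reads in introns entered the counts.

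Each sample showed the shift. Genes of at least 100 kb held 6.56%, 5.64% and 6.24% of the counts of tested genes in the triacsin C samples, 9.24%, 9.55% and 10.4% in the etomoxir samples and 8.94% and 9.91% with vehicle. No triacsin C sample came near the range of the others. With SR-3420 the share was 9.18%, 9.11% and 9.53% with triacsin C and 9.84%, 10.5% and 10.4% with etomoxir. Genes under 10 kb held 30.6%, 34.1% and 30.8% with triacsin C and 28.9%, 26.9% and 23.1% with etomoxir. When a smooth trend over span was removed from each sample, an alternative chosen after seeing the data, 561 genes were higher and 461 lower, and 704 of these 1022 were among the 2158 called without it. The stress, sterol and identity genes given above kept their calls in that fit unless an exception is stated.

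**Figure D4:**
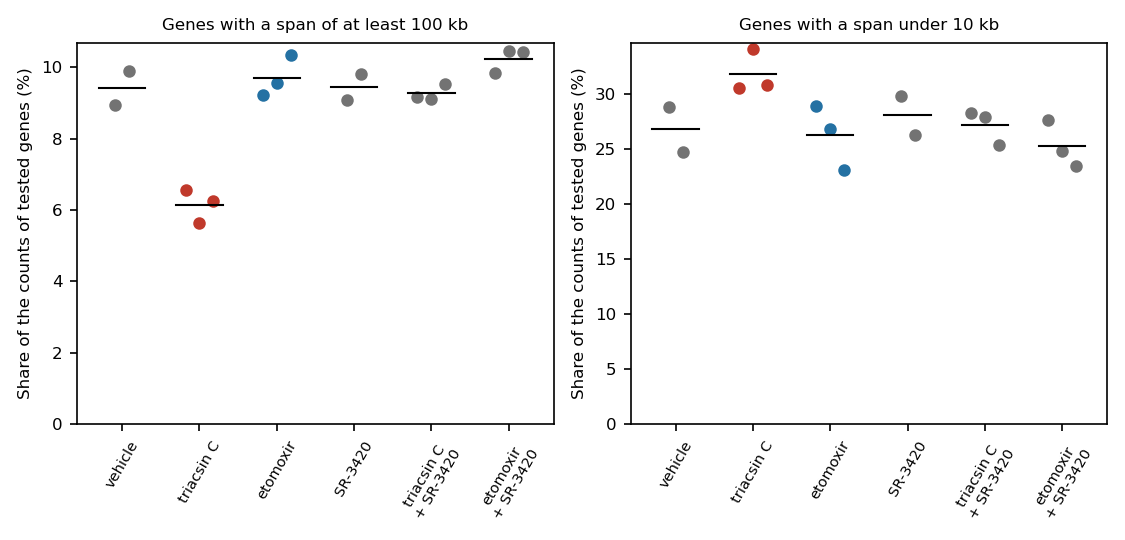
Share of the counts of tested genes, in percent, held by genes with a span of at least 100 kb (left) and under 10 kb (right); points are samples, lines are group means, and both axes start at 0. Triacsin C without SR-3420 lies between 5.64% and 6.56% on the left, and all other samples lie between 8.94% and 10.5%.

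Several of the genes that rose the most had few counts with vehicle and etomoxir. Pmp2, a fatty acid binding protein of myelin, had normalized counts of 3.03 and 6.42 with vehicle, 849, 716 and 848 with triacsin C and 10.9, 9.80 and 12.9 with etomoxir, and Fabp9, the form of the testis, had 3.03 and 2.57, 343, 171 and 279 and 2.72, 5.44 and 7.05. The triacsin C samples were far above the rest, which had few counts. Their log2 fold changes were 6.18 (SE 0.30, adjusted p = 1.16e-07) and 5.73 (SE 0.45, adjusted p = 3.59e-06), by edgeR's quasi-likelihood test, and depend on few counts in the etomoxir samples. Both lie on the minus strand of chromosome 3 behind Fabp4, the abundant binding protein of fat cells: Fabp4 at chr3:10204343-10208576, Fabp9 at chr3:10193624-10197283 and Pmp2 at chr3:10179851-10183885. Fabp4, looked at for this reason, had 116458, 110590.0 and 126559 with triacsin C and 87633, 90048 and 125610.0 with etomoxir and was not called (0.25, adjusted p = 0.483, same test), its groups overlapping. Fabp9 begins 7059 bases after the end of Fabp4, whose counts per kb were 819 times as high, and Pmp2 begins 9738 bases after the end of Fabp9. These genes are paralogs, so part of the reads may be placed wrongly among them.

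Other genes of this kind came with abundant neighbours too. Lag3, a receptor of immune cells, had 211, 243 and 254 normalized counts with triacsin C and 47.1, 30.5 and 37.6 with etomoxir and begins 1969 bases after the end of Ptms on the same strand, which was 123 times as dense in counts. Gzmm, a protease of immune cells, had 122, 154 and 159 and 12.7, 14.2 and 15.3 and begins 621 bases after Cdc34, 29.4 times as dense. Sh2d5, an adaptor protein of neurons, had 120.3, 121 and 74.9 and 20.8, 8.71 and 11.8 and begins 5728 bases after Hp1bp3, 22.8 times as dense. Like the other largest changes these genes were chosen among genes without overlap, and they had log2 fold changes of 2.63, 3.39 and 2.92 (SE 0.22, 0.29 and 0.41; adjusted p = 6.06e-06, 7.38e-06 and 2.93e-04 by edgeR). The macrophage marker Cd68, at 202, 225 and 209 against 71.6, 80.5 and 61.1 and 1.60 (SE 0.23, adjusted p = 3.59e-04, same test), begins 765 bases after Eif4a1, 3.30 times as dense. Dnajb13, a gene of sperm tails, had 119, 100 and 99.9 against 9.06, 7.62 and 3.53 (3.94, SE 0.36, adjusted p = 1.06e-05) and ends 3390 bases from Ucp2, which lies on the opposite strand and was 91.2 times as dense.

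The remaining large rises had no such neighbour before their start within 10 kb. Ppp1r3c, which directs glycogen synthesis, had normalized counts of 389 and 436 with vehicle, 1132, 1082 and 1376 with triacsin C and 187, 247 and 247 with etomoxir. All 3 groups were apart, with vehicle in the middle, and the log2 fold change was 2.43 (SE 0.36, adjusted p = 5.30e-04, edgeR's quasi-likelihood test). Ccno, a cyclin of cells with cilia, had 211, 289.6 and 257 and 48.0, 50.1 and 43.5 (2.44, SE 0.22, adjusted p = 8.51e-06, same test), Trim72, a membrane repair gene of muscle, had 139, 135 and 106 and 36.3, 14.2 and 11.8 (2.59, SE 0.48, adjusted p = 0.00232), and Chrm1, a muscarinic receptor, had 96.8, 85.9 and 110.3 and 4.53, 2.18 and 3.53 (4.79, SE 0.65, adjusted p = 2.29e-04).

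Neighbours were then counted for all genes tested, after these examples had been seen. Of 268 genes whose start lies within 5 kb after the end of a same-strand gene more than 10 times as dense in counts, 90 were higher with triacsin C (33.6%) and 3 lower, with a median log2 fold change of 0.74. They are 2.10% of the genes tested and 22.3% of the genes at least 2-fold higher. The 22.3% was taken under the main filter only. With 10 counts in every sample 189 genes were at least 2-fold higher, against 367. For the same rule it was 73 of 485 (15.1%, median 0.52) without a filter on low counts, 34 of 116 (29.3%, median 0.42) with 10 counts in every sample and 53 of 268 (19.8%, median 0.57) with the span trend removed, where 3.00%, 8.31% and 4.39% of all genes were higher. Where the dense neighbour lay before the start on the opposite strand, 20 of 229 genes were higher (8.73%). For a dense neighbour after the end it was 24 of 202 (11.9%) on the same strand and 75 of 411 (18.2%) on the opposite strand. Genes near dense neighbours are often low and short. Among genes with a mean under 200 normalized counts and a span under 20 kb, 73 of 180 were higher with a dense same-strand gene before them (40.6%, median 1.098), and 177 of 1689 without a same-strand gene there (10.5%, median 0.27). Low genes can pass the filter through their triacsin C counts, so the shares depend on it. With at least 10 counts in every sample they were 23 of 60 (38.3%, median 0.74) and 90 of 1020 (8.82%, median 0.21), and without a filter 59 of 336 (17.6%) and 120 of 5087 (2.36%); these filters were applied to neighbours after seeing the data. Removal of the span trend gave 43 of 180 (23.9%) and 81 of 1689 (4.80%). Whether counting used the strand of the reads is not stated, and how far reads from beyond a gene's end enter its neighbour's count was not tested.

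**Figure D5:**
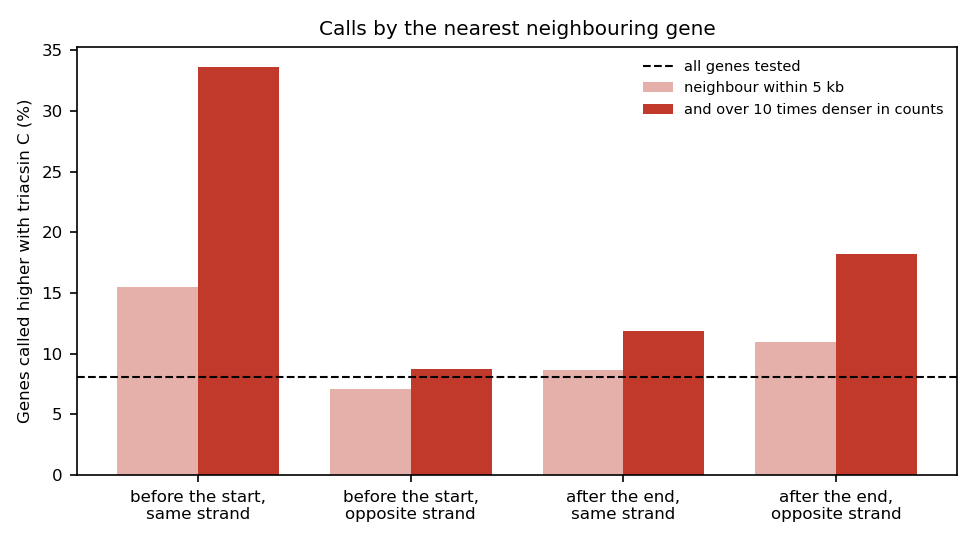
Share of genes called higher with triacsin C against etomoxir, in percent, by the place and strand of the nearest gene within 5 kb (light bars) and for neighbours more than 10 times as dense in counts (dark bars); the dashed line is the share among all genes tested, 8.08%. The dark bar for a same-strand neighbour before the start reaches 33.6%, a share that is 15.1% without a filter on low counts and 19.8% with the span trend removed.

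The same inhibitors were compared in 6 other samples that also received SR-3420, which share no sample with the comparison above. There 15 genes were higher with triacsin C (0.117%) and 23 lower (0.18%), and of these 38 genes 37 (97.4%) were also called in the same direction without SR-3420; they are 1.71% of the 2158. Of the 2158 genes, 1821 (84.4%) had the same sign with SR-3420. This share was not set against that of all genes tested, and both comparisons followed gene span. The genes higher without SR-3420 had a median of 0.19 with it, against 0.75 without, and the lower ones -0.21 against -0.87. Because these genes were chosen by their values without SR-3420, smaller medians in other samples follow in part from the choice. DESeq2's Wald test called 113 higher and 104 lower genes, 217 in all, and a fit of these groups alone called 2 higher and 0 lower. The number called with SR-3420 rests on single libraries: it was 13, 3 and 5 without replicates 1, 2 and 3 of triacsin C with SR-3420, and 6, 83 and 14 without replicates 1, 2 and 3 of etomoxir with SR-3420.

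A test of the difference itself, the interaction of the inhibitors with SR-3420, called 194 genes higher with SR-3420 (1.52%) and 99 lower (0.774%). With the span trend removed it called 46 genes, 18 higher and 28 lower. Hmox1 kept its difference, at 2.14 with SR-3420 (adjusted p = 1.16e-05, edgeR's quasi-likelihood test), and its interaction did not pass the threshold (adjusted p = 0.789, same test). Prkce had normalized counts of 466, 422 and 399 with triacsin C and SR-3420 and 732, 628 and 857 with etomoxir and SR-3420. Prkce was chosen for its large difference without SR-3420. Its gap narrowed to -0.79, still with no overlap, and the interaction was called (adjusted p = 5.82e-04, same test). The interaction count moved by more than 1.5 times when a library was left out: 145, 146 and 156 genes without triacsin C replicate 2, triacsin C replicate 3 and etomoxir replicate 2, 162 and 192 without replicates 1 and 3 of triacsin C with SR-3420, and 191 without replicate 1 of etomoxir with SR-3420. The trend over span was smaller with SR-3420 as well, with medians of 0.07 for genes under 5 kb and -0.13 from 160 to 320 kb, and a correlation of -0.26.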

How the data were processed

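RNA-seq counts of 16 samples in 6 groups were used. The authors aligned reads to mm9 with STAR 2.4.2a, limited duplicates with HOMER (1 read per position for each length) and counted reads per gene with iRNA-seq; the deposited whole-number counts of 20295 genes are not normalized. Genes passing edgeR's filterByExpr (12786) were scaled by TMM. A common edgeR 4.0.16 model (R 4.3.3) held the 6 group means and nothing else, so that replicate spread was estimated over all groups. The quasi-likelihood test was adjusted by Benjamini-Hochberg over all genes tested and called under 0.05. Total counts per sample ran from 9452861 to 25670624 (median 13602886), which limits precision for genes with few counts. Normalized counts use DESeq2 size factors.

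Named genes are up to 12 in each direction with the largest change among called genes without overlap of groups or of another gene and with a mean of at least 50 normalized counts, up to 4 called genes per list of 38 lists, and the inhibitors' targets with a few genes of the study, whatever their values. Members and lists were chosen with earlier results of these data known. Lists are described by counts and medians.

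Alternatives were DESeq2's size factors, the Wald test of DESeq2 1.42.0, no filter, a filter of 10 counts in each sample, a fit of the compared groups only, a block for the replicate number, no overlapping genes (2032 overlap another), leaving out each sample, and, chosen after seeing the data, removal of a trend over gene span (spline with 5 degrees of freedom on log span, per sample). The methods were also run on simulated data, whose outcome is not given here and is not used as support. Plots were made in matplotlib 3.10.9 (Python 3.11.15).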

Additional observations from a re-analysis of the deposited data

Results flagged for a closer look

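The difference between triacsin C and etomoxir changed with SR-3420 in 293 genes, by edgeR's test of the interaction (3 samples in each of 4 groups), 194 in the positive and 99 in the negative direction. With a trend over gene span removed it was 46 genes, 18 and 28. For the genes named here, the change is the log2 difference with SR-3420 minus that without it, so that a negative value marks a lower difference when SR-3420 was present. It was -4.89 for Pmp2, -4.54 for Fabp9, -3.17 for Sh2d5 and for Ppp1r3c, -3.01 for Dnajb13, -2.89 for Gzmm, -2.62 for Ffar4, -2.59 for Egln3 and -2.50 for Ankrd37. Smaller shifts of the same sign were found for Lag3 (-1.83), Mt2 (-1.52), Acot4 (-1.49), Cd68 (-1.44), Bhlhe40 (-1.35), Ccno (-1.32), Hilpda (-1.27), Klf10 (-1.23), Atf3 (-1.15), Trib1 (-0.85) and Pdp2 (-0.83). Although each of these genes was higher with triacsin C without SR-3420, with it the log2 difference was below 0 for Ffar4 (-1.25), Egln3 (-1.03), Ppp1r3c (-0.74), Bhlhe40 (-0.30), Sh2d5 (-0.25), Acot4 (-0.22) and Hilpda (-0.15), and none of those passed the threshold there by edgeR. Among genes that were lower with triacsin C, the gap narrowed by 1.01 for Insr, 1.101 for Slc22a23, 1.14 for Pdzd2, 1.24 for Prkag2, 1.47 for Abcc4, 1.80 for Prkce, 1.84 for Plcb1, 1.92 for Exoc6 and for Chd7 and 2.24 for Sntb1. Many of these genes were named for a large difference without SR-3420, and the interaction subtracts that same difference. Part of the change can thus follow from the choice of genes. What lies behind these changes was not tested.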

How the results depend on the processing

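For triacsin C against etomoxir the number of called genes was 2158 and became 4994 (2827 higher, 2167 lower) with the replicate number as a block and 1022 with the trend over gene span removed (chosen after seeing the data), and 1247 to 2139 when a library was left out. At 2-fold it was 800, became 372 with the span trend removed and was 602 to 946 in the leave-outs. For triacsin C against vehicle (1497) the block gave 3072, span removal 774 and the leave-outs 702 to 1089, where a lone vehicle sample is assumed to vary like the other groups. For etomoxir against vehicle (3) DESeq2's Wald test gave 17, the block 6, span removal 6, a fit of the compared groups 0 (115 at an unadjusted p under 0.05) and the leave-outs 0 to 3. With SR-3420 the inhibitors differed in 38 genes, in 217 by the Wald test, 265 with the block and 2 in the compared groups alone, and in 3 to 83 in the leave-outs. The interaction (293) gave 682 by the Wald test, 1055 with the block, 46 with span removal and 145 to 262 in the leave-outs. The cause of these moves was not tested. Of called genes between the inhibitors 47.9% were higher, against 32.1% without a filter on low counts, 33.4% in the compared groups alone, 56.6% with the block and 54.9% with span removal. At 2-fold it was 45.9%, against 34.2%, 35.1%, 48.4% and 64.2% in the same order and 33.0% with 10 counts in each sample. With SR-3420 39.5% were higher, against 66.7% with span removal, and for the interaction 66.2% against 39.1%.

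The study names 3 independent experiments but not which samples belong to each, so whether equal replicate numbers mark the same experiment is not known. Deviations of triacsin C and etomoxir samples from their group means correlated across 9610 genes at -0.44, 0.44 and 0.77 for numbers 1, 2 and 3, and 3 of the 6 samples correlated best with the sample of their own number, so the block is an alternative only.

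Of the 157 named genes, called or not, 155 kept direction and side of the threshold with DESeq2's size factors, 156 with the Wald test, 154 with the block (where Acsl3 at 0.77, Plin2 at 0.62 and Cyp26b1 at -0.49 were called, unlike without the block, with adjusted p of 0.0138, 0.00133 and 0.0141), 137 without a filter, 129 in the compared groups alone and 97 with span removal. The leave-outs kept 116 to 142. A single gene changed sign: Acadvl, a gene of beta-oxidation, was at -0.0222 with span removal against 0.39, and the cause was not tested. Of the 38 lists, counts stayed within 1.5 times for 38 with DESeq2's size factors, 31 with the Wald test, 27 without a filter, 24 in the compared groups, 11 with the block and 9 with span removal. Depth limits genes with few counts, such as Ucp1. With 3 samples per inhibitor, 2 of vehicle and a single cell line, other cells and doses are not covered. Whether introns or the strand of reads entered the counts is not stated outright, and the span and neighbour values depend on it.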

Other observations

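Inflammatory genes were raised in a few members. Of 23 tested genes of inflammation and NF-kB 4 were higher and 0 lower by edgeR (median 0.51; 3 and 0 with the span trend removed, median 0.17; 6 and 1 by DESeq2's Wald test), and the cytokine genes Il1b, Tnf and Ccl20 had at most 1 raw count in any of the 6 samples. Among genes of the cell cycle 2 of 31 were higher and 0 lower (median 0.18), but 1 with the span trend removed and without triacsin C replicate 1, 2 or 3 or etomoxir replicate 2. Of 17 genes of p53 and apoptosis 3 were higher and 2 lower (median 0.07), 2 and 1 with the span trend removed and without triacsin C replicate 1 or 3 or etomoxir replicate 1, and 2 and 0 without triacsin C replicate 2. Cdkn1a, a cell cycle inhibitor in both lists, had 9974, 11315 and 9812 against 6192, 5560.0 and 4817 (log2 fold change 0.93, SE 0.14, adjusted p = 5.87e-04, edgeR's quasi-likelihood test), with every triacsin C sample above every etomoxir sample. Genes of autophagy and lysosomes had 6 higher and 3 lower of 34, where 8.08% and 8.8% of all genes were (median 0.18), but 0 higher and 1 lower with the span trend removed (median 0.02). They were 2 and 2 without triacsin C replicate 1 or 2 or etomoxir replicate 3, 3 and 2 without triacsin C replicate 3 and 2 and 3 without etomoxir replicate 2. Of 22 collagen and matrix genes 2, Sparc and Timp1, were higher and 0 lower by edgeR (median 0.31). Timp1 kept its call in 0 and Sparc in 1 of the 6 leave-outs, at log2 fold changes of 0.515 to 0.582 and 0.338 to 0.457. With the span trend removed neither was called while Col5a1, Col5a2 and Timp3 were.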
